A study of Mus musculus with 8 samples.

Results

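The machinery that carries nuclear-encoded proteins into mitochondria and folds them there was followed at the transcript level in AML12 cells with and without the Vwa8 gene. Its genes were chosen by name: every gene whose symbol begins with Tomm or Timm and a digit, together with Pam16, Dnajc19, Hspd1, Hspe1, Hspa9, Pmpca, Pmpcb and Grpel1. A gene counted as measured where a probe set carried its symbol alone, and its brightest such probe set, by the mean of the 8 arrays, stood for it. This gave 30 genes out of 22180. Tomm5, Tomm6 and Dnajc19 had probe sets shared with other symbols only and were not analysed here.

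AML12 is a line of hepatocytes derived from mouse liver. The gene of VWA8, an ATPase found in mitochondria, was deleted from these cells with CRISPR/Cas9. Separate cultures of wild-type cells (n = 4) and VWA8-null cells (n = 4) were differentiated after growth in serum-containing DMEM/F12 with insulin, transferrin, selenium and dexamethasone, and the total RNA of each culture was read on 1 Affymetrix mouse expression array. The labels do not give the count of knockout clones, so a clone's own traits and the deletion cannot be told apart.

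Most mitochondrial proteins are made in the cytosol. They enter through the TOM complex of the outer membrane, after which the TIM23 translocase and its motor, driven by the mitochondrial Hsp70, draw proteins with a cleavable presequence into the matrix, while small Tim proteins of the intermembrane space hand carrier proteins to the TIM22 translocase of the inner membrane. In the matrix the processing peptidase removes the presequence and the Hsp60 and Hsp10 chaperonin helps the protein to fold.

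The samples carried their labels. Vwa8 itself read between 8.91 and 9.01 in wild-type and between 5.07 and 5.33 in VWA8-null cells on the log2 scale (adjusted p = 4.84e-08 in limma). Array medians lay between 4.27 and 4.33. All 5 measured hepatocyte markers (Alb, Ttr, Apoa1, Hnf4a and Serpina1a) were higher in VWA8-null cells, with a median log2 difference of 0.45. Of 4 cholangiocyte markers 1, Krt7, was lower, and wild-type means ran from 2.40 for Epcam to 10.07 for Sox9. Of 5 stellate or fibroblast, 4 endothelial and 4 macrophage markers 0 passed in limma, and 0 of them stood above the median gene. The part of the hepatocyte shift in the results below was not tested.

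The chaperonin genes Hspd1 and Hspe1 rose together. They lie head to head on chromosome 1, on opposite strands. In the RefSeq promoter table (GRCm38.p6) Hspe1 starts at 55088148 on the plus strand, and Hspd1 has starts at 55087932 and 55088243 on the minus strand. The 215 bases between the divergent starts, chr1:55087933-55088147, are shown on the plus strand because both genes passed the test described next and share this stretch. Capitals mark the heat shock element GAANNTTC.
Hspd1-Hspe1 interval: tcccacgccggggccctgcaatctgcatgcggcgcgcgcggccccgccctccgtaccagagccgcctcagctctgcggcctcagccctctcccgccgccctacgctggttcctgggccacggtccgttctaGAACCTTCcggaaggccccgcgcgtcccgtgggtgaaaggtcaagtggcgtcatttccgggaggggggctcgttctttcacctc

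A match to that element was searched on both strands in the window from 250 bases before to 50 after each listed start. It was found for 3 of the 26 genes of the set that have a window, namely Hspd1, Hspe1 and Timm9, or 11.5%, against 9.04% of all 27025 genes in the table and 6.87% of the 8772 whose mean signal exceeded the median gene. Hspd1 and Hspe1 share the same match. The core of the ETS factors, CCGGAAGT, was found for 7 of 26 genes, or 26.9%, against 4.31% of all genes and 9.66% of the brighter ones. To compare them, the matches of these 7 genes are printed with 10 bases on each side where the window allows, read so that the core, in capitals, stands on the printed strand. Of these 7, only Timm10b passed the test between genotypes described next.
Tomm70a, chr16:57121624-57121651, plus strand: ccttctgaccCCGGAAGTggttctcccc
Timm23, chr14:32201922-32201949, plus strand: tgtgtgcggcCCGGAAGTgggaagcgcg
Timm29, chr9:21592499-21592526, minus strand: tgagtggagcCCGGAAGTggtcagagct
Timm8a2, chr14:122034609-122034636, minus strand: agaacgagaaCCGGAAGTgtcatggctg
Timm8a2, chr14:122034653-122034680, minus strand: gagccagggaCCGGAAGTgccccaccca
Timm10, chr2:84827027-84827054, plus strand: agacttccttCCGGAAGTgacccacgtg
Timm10b, chr7:105640470-105640494, minus strand: agtcgccCCGGAAGTaaactctcac
Pmpcb, chr5:21737134-21737161, plus strand: gagtcatgacCCGGAAGTacatctccac

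The core of the factor NRF1, GCGCATGCG, was found for 1 gene of the set, Timm13, or 3.85%, against 1.95% of all genes and 4.32% of the brighter ones. The composite element of ATF4 and CHOP, TGATGNAA, was found for 0 of 26, against 4.51% of all genes and 2.76% of the brighter ones. These matches describe letters in a window and not binding.

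Between genotypes, 5 of the 30 genes were higher in VWA8-null cells (Hspd1, Hspe1, Pmpca, Timm17b and Timm21) and 3 were lower (Timm10b, Tomm7 and Tomm22). The test was limma's moderated linear model over all 22180 genes, with p-values adjusted by Benjamini-Hochberg and a threshold of 0.05. Over all genes it called 20.9%, with 10.4% higher and 10.4% lower, so the 8 calls among 30 genes stand near the background. None of the 30 genes changed by as much as 0.5 on the log2 scale. Their median log2 difference was 0.0083, against -0.0027 over all genes, and the median absolute difference was 0.16 against 0.14. Apart from the chaperonin pair the called genes lie on different chromosomes, Pmpca on chromosome 2, Tomm7 on 5, Timm10b on 7, Tomm22 on 15 and Timm17b on X, with Timm21 on another. The set was bright, with 28 of 30 genes above the median gene, whereas the share called over all genes includes dim ones. The share called among genes of like brightness was not computed. A difference in a bulk culture does not separate fewer cells in a given state from less RNA per cell.

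**Figure D1:**
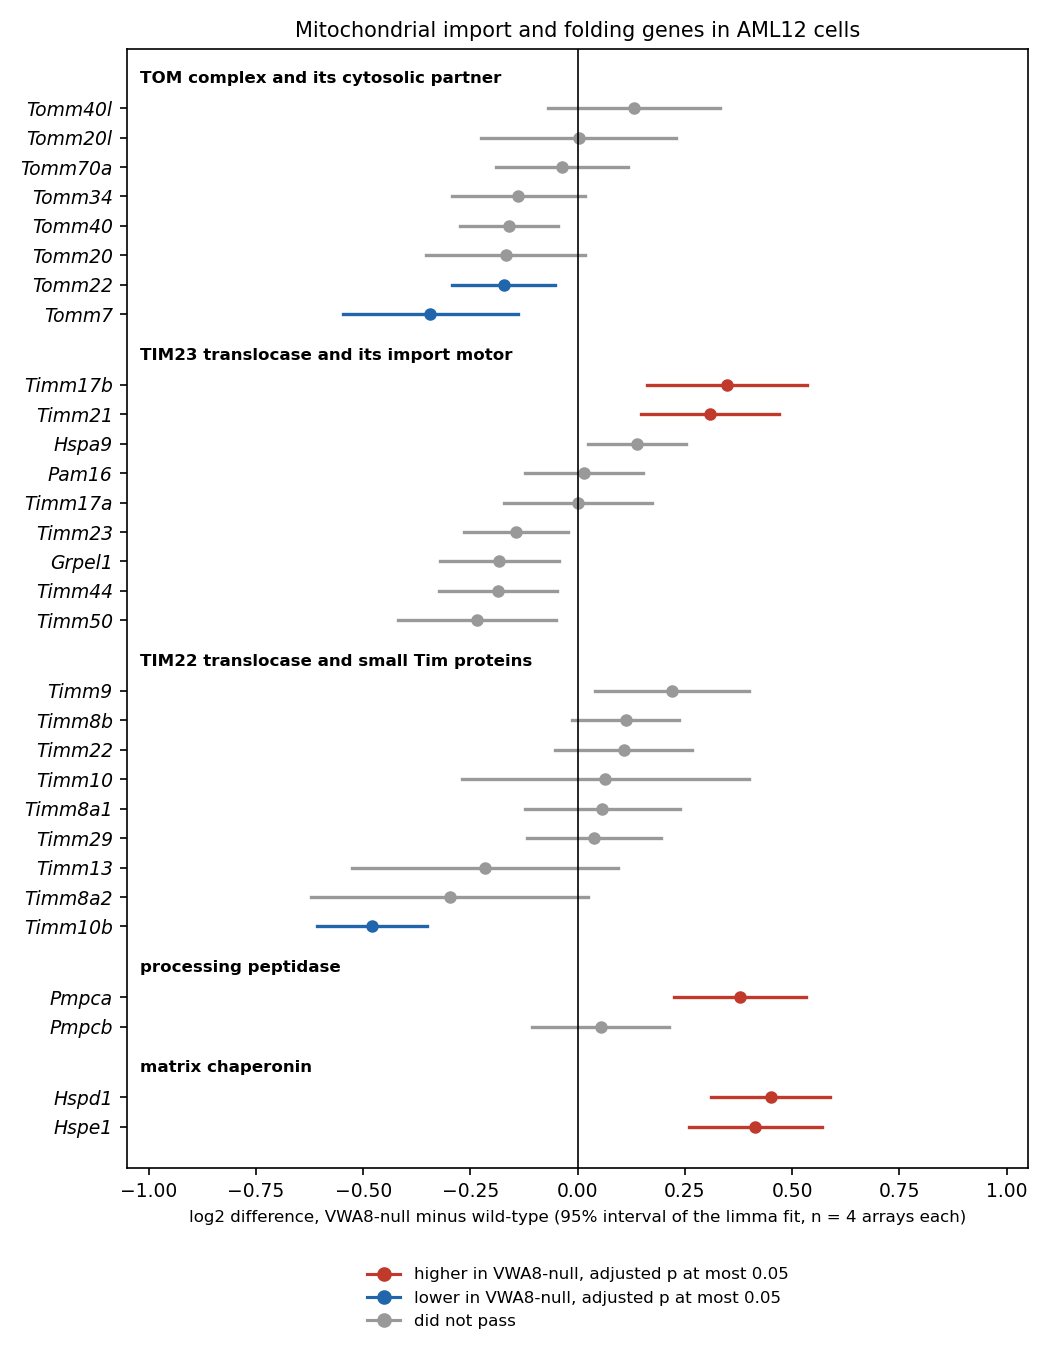
Log2 difference (VWA8-null minus wild-type, horizontal axis) of each of the 30 genes, as points with the 95% interval of the limma fit over 4 arrays per genotype, ordered by difference within each complex; red genes were higher, blue genes lower, and grey genes did not pass. The 8 coloured genes are spread over every complex, and none reaches 0.5 in size.

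Hspd1 encodes Hsp60, the large subunit of the chaperonin. Wild-type arrays read 9.84, 9.80, 9.84 and 9.66, and VWA8-null arrays 10.23, 10.20, 10.22 and 10.29. All 4 VWA8-null arrays lay above all wild-type arrays, and the log2 difference was 0.45 ± 0.061 (SE), a 1.37-fold rise (limma adjusted p = 0.000829).

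Hspe1 encodes Hsp10, the lid of the chaperonin. Wild-type arrays read 4.41, 4.29, 4.38 and 4.22, and VWA8-null arrays 4.81, 4.76, 4.77 and 4.62. The groups did not overlap, and the difference was 0.41 ± 0.068 (limma adjusted p = 0.00248). The probe set of Hspe1 was dim, just under the median gene. RefSeq lists 7 pseudogenes named after Hspe1 and 5 named after Hspd1, and how their transcripts add to these signals was not tested. The log2 ratio of Hspd1 to Hspe1 within an array was 5.46 ± 0.035 (SD) in wild-type and 5.50 ± 0.114 in VWA8-null cells, and the difference of 0.04 ± 0.059 (SE) gave p = 0.743 in an exact permutation test over the 70 arrangements of 4 against 4 arrays, two-sided. A p of this size does not show that the rises were equal.

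Genes around Hspd1 and Hspe1 were higher too. Among genes whose annotated span begins within 2 Mb of the Hspe1 start, 12 of 23 were higher in VWA8-null cells and 1, Plcl1, was lower, Hspd1 and Hspe1 left aside. Among the 13 of them brighter than the median gene, 11 were higher and none lower, with a median log2 difference of 0.46. The nearest of these, named after their values were seen, were Coq10b at 0.37 ± 0.050 and Mob4 at 0.46 ± 0.073. Subtracting the median difference of brighter neighbours (genes above the median gene, 30 to either side), 0.33 for Hspd1 and 0.36 for Hspe1, left 0.12 (limma adjusted p = 0.231) and 0.05 (adjusted p = 0.640). This alternative was chosen after seeing the data. With all neighbours in place of the brighter ones, as planned, Hspd1 kept 0.22 (adjusted p = 0.0360) and Hspe1 0.18 (adjusted p = 0.115). What moved the region was not tested.

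**Figure D2:**
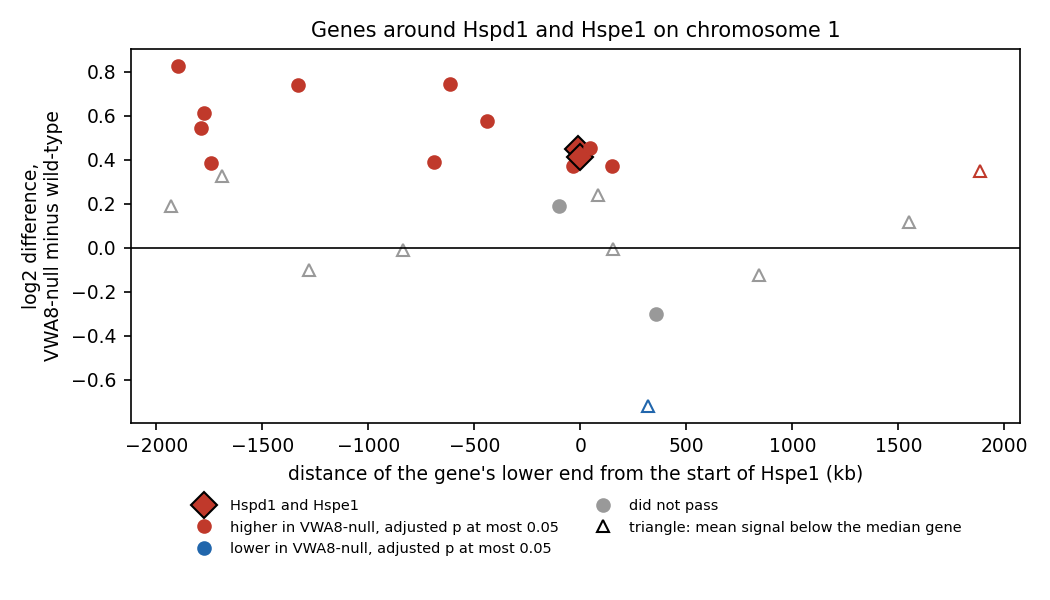
Log2 difference (VWA8-null minus wild-type, vertical axis) of each measured gene whose lower end lies within 2 Mb of the Hspe1 start, against distance in kb; diamonds are Hspd1 and Hspe1, open triangles are genes below the median gene, and colours give the limma call. Hspd1 at 0.45 and Hspe1 at 0.41 lie among neighbours whose brighter members have a median of 0.46.

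The processing peptidase is a dimer of the subunits encoded by Pmpca and Pmpcb, of which the beta subunit holds the active site. Pmpca read 7.70, 7.69, 7.49 and 7.66 in wild-type and 8.02, 7.93, 8.04 and 8.07 in VWA8-null cells. The groups did not overlap, and Pmpca rose by 0.38 ± 0.067 (limma adjusted p = 0.00376). It stayed past the threshold in each of 19 alternatives, between 0.26 and 0.41.

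Pmpcb read 8.01, 7.90, 7.96 and 8.16 against 8.07, 8.02, 8.14 and 8.01. Its groups overlapped, and its difference of 0.05 ± 0.070 did not pass (limma adjusted p = 0.682, 95% interval -0.11 to 0.21). The log2 ratio of Pmpca to Pmpcb was -0.37 ± 0.139 (SD) in wild-type and -0.05 ± 0.072 in VWA8-null cells, higher in 4 of 4 VWA8-null arrays. The difference of 0.33 ± 0.078 (SE) gave p = 0.0286 in the exact permutation test, the smallest that 4 against 4 arrays allow, and 0.0952 after adjustment over the 10 ratios tested. The peptidase subunits were therefore not shown to change unequally, though 1 ratio alone could not pass that adjustment even at this lowest p. The ratio difference fell to 0.05 when each gene's brighter neighbours were subtracted. With all neighbours subtracted, as planned, Pmpca was left at 0.29 and Pmpcb at 0.11.

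In the TIM23 translocase Timm17b and Timm21 rose and the other 7 measured genes did not pass, beside 20.9% called in either direction over all genes. Timm17b, on the X chromosome, encodes one of the paralogous Tim17 channel subunits. Its arrays read 7.56, 7.30, 7.41 and 7.27 in wild-type and 7.80, 7.70, 7.82 and 7.61 in VWA8-null cells. The groups did not overlap, with a log2 difference of 0.35 ± 0.082 (limma adjusted p = 0.0156). Its brighter neighbours had a median of -0.04.

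The paralog Timm17a read 8.66, 8.56, 8.72 and 8.68 against 8.56, 8.53, 8.74 and 8.79, and the groups overlapped throughout. Its difference was 0.00028 ± 0.076 (limma adjusted p = 0.999, 95% interval -0.17 to 0.17), and its sign turned under 5 alternatives. The log2 ratio of Timm17a to Timm17b was 1.27 ± 0.128 (SD) in wild-type and 0.92 ± 0.182 in VWA8-null cells. The difference of -0.35 ± 0.111 (SE) had an exact permutation p = 0.0571, or 0.0952 adjusted over the 10 ratios, so the paralogs were not shown to differ.

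Timm21 couples TIM23 to the TOM complex and to assembly of the respiratory chain. It read 7.36, 7.52, 7.60 and 7.47 in wild-type and 7.77, 7.70, 7.81 and 7.89 in VWA8-null cells, without overlap. The difference was 0.31 ± 0.071 (limma adjusted p = 0.0140), against a median of 0.05 for its brighter neighbours. Timm17b and Timm21 passed in all 19 alternatives, Timm17b with adjusted p up to 0.0475 and Timm21 with adjusted p up to 0.0403.

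Of the other TIM23 subunits, Timm23, Timm44 and Timm50 did not pass. Timm23, the channel-forming subunit, read 9.57, 9.51, 9.50 and 9.62 against 9.44, 9.40, 9.40 and 9.39, a difference of -0.14 ± 0.054 (limma adjusted p = 0.0983). Timm44, which tethers the motor to the channel, was at -0.19 ± 0.061 (adjusted p = 0.0606). Timm50, the presequence receptor of the inner membrane, was at -0.23 ± 0.081 (adjusted p = 0.0770, or 0.0280 without VWA8-null replicate 3). The arrays of Timm23 and Timm44 did not overlap between genotypes and those of Timm50 did. Timm23, Timm44 and Timm50 each passed as lower in some of the 19 alternatives. Timm23 did with an intensity trend (limma adjusted p = 0.0102) and without the dimmest 50% of probe sets (adjusted p = 0.0241). Timm44 passed in 4, with adjusted p from 0.0147 to 0.0416, and Timm50 in 4, with adjusted p from 0.0237 to 0.0486. Subtracting brighter neighbours left Timm23 at -0.029 (limma adjusted p = 0.763) and Timm44 at 0.020 (adjusted p = 0.860). The medians subtracted were -0.11 and -0.21, where those of all neighbours, the planned choice, were -0.027 and -0.087.

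The motor showed no common direction. Hspa9, the mitochondrial Hsp70 that pulls the chain inward, was at 0.14 ± 0.050 (limma adjusted p = 0.0917), with VWA8-null arrays from 11.43 to 11.50 above wild-type arrays from 11.29 to 11.35. Grpel1, its nucleotide exchange factor, was at -0.18 ± 0.061 (adjusted p = 0.0665), with VWA8-null arrays from 7.27 to 7.43 below wild-type arrays from 7.46 to 7.59. Its brighter neighbours on chromosome 5 had a median of -0.17, and subtracting it left -0.014. Hspa9 passed as higher in 3 of the 19 alternatives, with limma adjusted p from 0.00125 to 0.0481. Grpel1 passed as lower in the same 3, with adjusted p from 0.0165 to 0.0372. Both missed in the other 16. Pam16, a regulatory subunit of the motor, was at 0.01 ± 0.060 (adjusted p = 0.912). The log2 ratio of Hspa9 to Grpel1 was 3.78 ± 0.072 (SD) in wild-type and 4.10 ± 0.103 in VWA8-null cells, higher in 4 of 4 VWA8-null arrays (exact permutation p = 0.0286, adjusted p = 0.0952 over the 10 ratios). The difference of 0.32 became 0.12 with brighter neighbours subtracted. With all neighbours subtracted, as planned, Hspa9 was left at 0.16 and Grpel1 at -0.049.

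**Figure D3:**
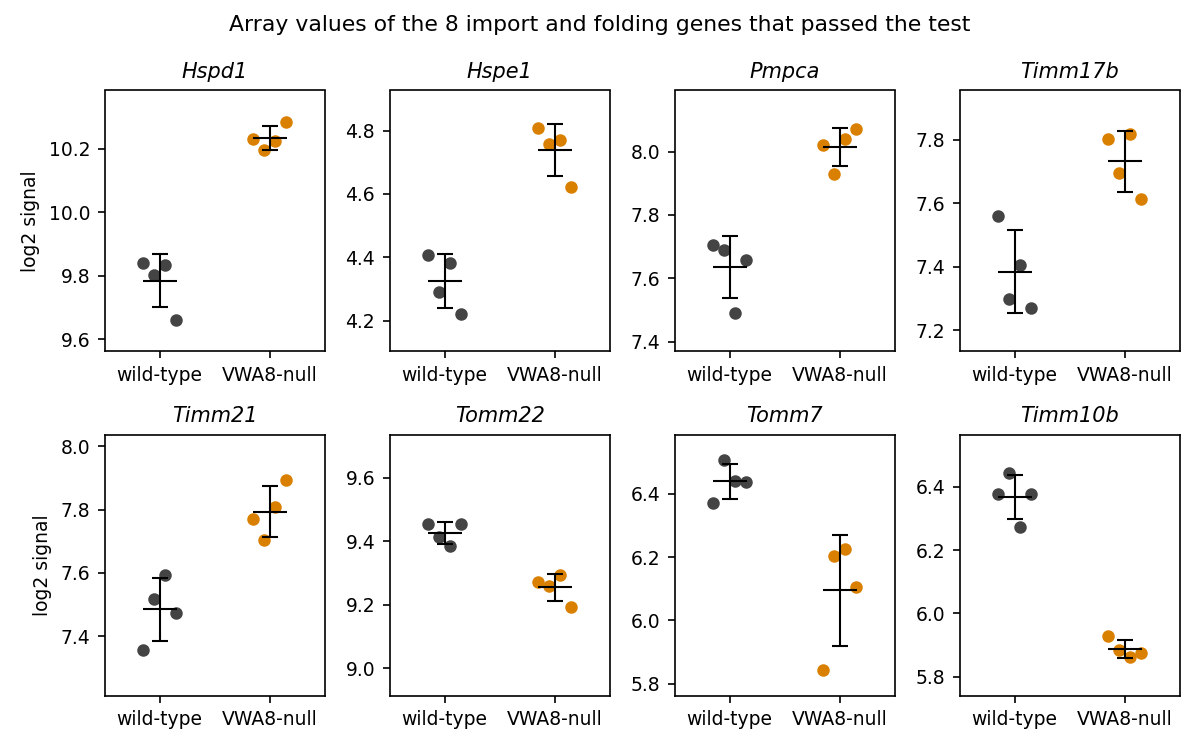
Log2 signal on each array (points; vertical axis, the same span in every panel) of the 8 genes that passed, wild-type in grey and VWA8-null in orange, with the group mean (bar) and SD (whiskers), n = 4 each. In every panel the 4 VWA8-null arrays lie wholly above or wholly below the 4 wild-type arrays, with the narrowest separation for Timm17b.

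Of 8 measured genes of the TOM complex and its cytosolic partner 2, Tomm7 and Tomm22, were lower and 0 higher, beside 10.4% each way over all genes, and both calls were lost under several alternatives. Tomm7, a small subunit that modulates assembly of the channel and stabilises PINK1 at the outer membrane, read 6.37, 6.51, 6.44 and 6.44 in wild-type and 5.84, 6.20, 6.23 and 6.11 in VWA8-null cells. The groups did not overlap, VWA8-null replicate 1 was the lowest, and the difference was -0.34 ± 0.090 (limma adjusted p = 0.0252). The call was lost without wild-type replicate 2, 3 or 4 or VWA8-null replicate 4, with adjusted p up to 0.0669.

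Tomm22, the central receptor that links the presequence receptor to the channel, read 9.46, 9.41, 9.38 and 9.46 against 9.27, 9.26, 9.29 and 9.19. The difference was -0.17 ± 0.053 (limma adjusted p = 0.0487), just inside the threshold, and it missed when any 1 of the 8 arrays was left out, with adjusted p from 0.0661 to 0.113. Tomm40, the channel itself, read 9.44, 9.40, 9.36 and 9.40 against 9.22, 9.25, 9.26 and 9.25. Its arrays did not overlap either, and at -0.16 ± 0.050 it lay just outside the threshold (limma adjusted p = 0.0537). Tomm40 passed as lower in 5 of the 19 alternatives, with limma adjusted p from 0.00324 to 0.0482. It missed in the other 14. Subtracting brighter neighbours, whose median was -0.15, left Tomm40 at -0.011 (adjusted p = 0.909). The median of all its neighbours, the planned choice, was -0.056.

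The receptors Tomm20 and Tomm70a were at -0.17 ± 0.081 (limma adjusted p = 0.202) and -0.04 ± 0.068 (adjusted p = 0.782). Tomm34, a cytosolic partner that holds precursors before import, was at -0.14 ± 0.068 (adjusted p = 0.214), and after subtraction of its brighter neighbours, whose median was 0.12, at -0.26 (adjusted p = 0.0275). It passed in no other of the 19 alternatives, and the median of all its neighbours was 0.018. Of the paralogs, Tomm40l was at 0.13 ± 0.088 (adjusted p = 0.376) and Tomm20l, dim on all arrays, at 0.0027 ± 0.10. The median over the 8 genes was -0.15. The log2 ratio of Tomm40 to Tomm40l moved from 3.57 ± 0.180 (SD) to 3.28 ± 0.079 (exact permutation p = 0.0571, adjusted p = 0.0952 over the 10 ratios), and that of Tomm20 to Tomm20l from 4.67 ± 0.162 to 4.50 ± 0.124 (p = 0.143, adjusted p = 0.204). With brighter neighbours subtracted the difference in the ratio of Tomm40 to Tomm40l went from -0.29 to -0.039, and that of Tomm20 to Tomm20l from -0.17 to -0.093. For Tomm40 and Tomm40l the medians of brighter neighbours were -0.15 and 0.10, and those of all neighbours -0.056 and -0.018.

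The carrier route through the small Tim proteins and TIM22 gave 1 call in 9 genes, beside 20.9% called in either direction over all genes. Timm10b, the small Tim that docks the chaperone complex on TIM22, read 6.38, 6.44, 6.27 and 6.38 in wild-type and 5.93, 5.89, 5.86 and 5.87 in VWA8-null cells. The groups were far apart relative to their spread, with a difference of -0.48 ± 0.057 (limma adjusted p = 0.000385). A second, dimmer probe set named for Timm10b alone disagreed. It read from 5.26 to 5.72 in wild-type and from 5.35 to 5.87 in VWA8-null cells, a difference of 0.10 ± 0.143, and the mean of both probe sets stood at -0.19 (adjusted p = 0.190).

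The hexamer partners Timm9 and Timm10, which chaperone carriers across the intermembrane space, were at 0.22 ± 0.079 (limma adjusted p = 0.0888, or 0.0319 without wild-type replicate 4) and 0.06 ± 0.147 (adjusted p = 0.823). Timm9 read from 5.98 to 6.23 in wild-type and from 6.15 to 6.38 in VWA8-null cells, so the groups overlapped through wild-type replicate 4. The ratio of Timm9 to Timm10 differed by 0.16 ± 0.155 (SE; exact permutation p = 0.343, adjusted p = 0.429).

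The second chaperone pair, the TIMM8 and TIMM13 proteins, did not pass in any member. Timm13 was at -0.22 ± 0.136 (limma adjusted p = 0.340), or -0.36 (adjusted p = 0.0222) without wild-type replicate 2, which read 6.02 where the other wild-type arrays read 6.57, 6.50 and 6.67. Timm8b was at 0.11 ± 0.055 (adjusted p = 0.208), with VWA8-null arrays from 8.53 to 8.65 all above wild-type arrays from 8.43 to 8.50. Timm8a1, the X-linked member, was at 0.06 ± 0.080 (adjusted p = 0.700), and its other probe sets were at -0.08 ± 0.115 and -0.04 ± 0.081. Timm8a2, close in sequence to Timm8a1, was at -0.30 ± 0.142 (adjusted p = 0.196). The ratio of Timm8a1 to Timm8b differed by -0.06 ± 0.093 (exact permutation p = 0.571, adjusted p = 0.635).

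Timm22, the carrier translocase channel, was at 0.11 ± 0.070 (limma adjusted p = 0.361) and Timm29, its metazoan-specific partner, at 0.04 ± 0.068 (adjusted p = 0.772). Set against each other within an array, the channels of the carrier and presequence routes, Timm22 and Timm23, had a log2 ratio of -4.09 ± 0.076 (SD) in wild-type and -3.84 ± 0.099 in VWA8-null cells. That difference of 0.25 ± 0.063 (SE) had an exact permutation p = 0.0571 and an adjusted p of 0.0952 over the 10 ratios. It became 0.10 with brighter neighbours subtracted, whose medians were 0.034 for Timm22 and -0.11 for Timm23. The medians of all neighbours were 0.010 and -0.027. None of the 10 ratios passed after adjustment. Group sizes of 4 make the raw p of 0.0286 the lowest possible value. A ratio at that value could pass the adjustment over 10 ratios only if several others reached it too. Missing the threshold therefore says little about any 1 ratio.

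Counting separation alone, 7 of the 30 genes had all VWA8-null arrays above all wild-type arrays, namely the 5 that rose with Hspa9 and Timm8b. The same held in the other direction for 7, namely the 3 that fell with Tomm40, Timm23, Timm44 and Grpel1. Over all genes these shares were 12.9% and 13.2%. A further 7 genes had adjusted p between 0.05 and 0.1, so the number of lower genes moved with the model. It was 8 with an intensity trend and robust variances, and 1 without wild-type replicate 3, wild-type replicate 4 or VWA8-null replicate 4. Lower calls over all genes moved the same way. They rose from 2312 to 2800 with the trend and fell without each of these arrays. Whether the set moved more than all genes did was not tested.

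The differences were set beside those of neighbours along the chromosome. Of the 5 genes that rose, Hspd1 and Hspe1 had neighbourhoods with 39 of 60 brighter genes higher, and Pmpca one with 21 of 60 higher and 3 lower. Around Timm17b 4 of 52 brighter neighbours were higher and 10 lower, and around Timm21 7 of 33 were higher and 4 lower. Around Timm10b 6 of 60 were higher and 14 lower, and around Tomm7 5 and 14. With brighter neighbours subtracted, 3 of the 5 higher genes stayed past the threshold (Pmpca at 0.26, Timm17b at 0.39 and Timm21 at 0.26). Of the 3 lower genes 1 did, Timm10b at -0.36, and Tomm34, which had not passed, came past it in this alternative alone. Tomm7 was left at -0.25 (limma adjusted p = 0.0913) and Tomm22 at -0.11 (adjusted p = 0.202). The subtraction of brighter neighbours was chosen after seeing the data for every gene and ratio. With all neighbours subtracted, as planned, 4 genes of the set passed as higher and 1 as lower.

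**Figure D4:**
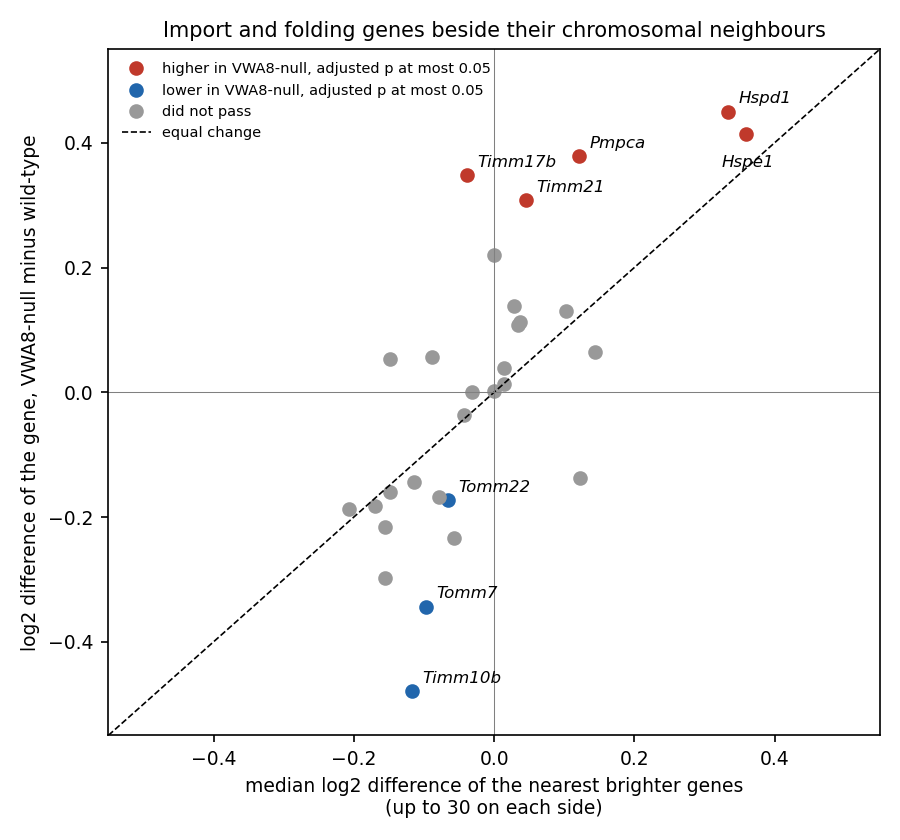
Log2 difference of each of the 30 genes (vertical axis, VWA8-null minus wild-type) against the median log2 difference of up to 30 brighter genes on each side along its chromosome (horizontal axis), coloured by the limma call; the dashed line marks equal change. Hspd1 and Hspe1 lie near the line at 0.33 and 0.36 on the horizontal axis, while Pmpca, Timm17b, Timm21, Timm10b and Tomm7 lie away from it.

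Other genes of the import pathway, listed by function, gave 5 higher and 0 lower of 19 measured, with a median of 0.0016, beside 10.4% higher and 20.9% called in either direction over all genes. Dnlz, which keeps the mitochondrial Hsp70 soluble, read 6.91, 6.77, 6.97 and 6.91 in wild-type and 7.48, 7.50, 7.51 and 7.57 in VWA8-null cells, a rise of 0.63 ± 0.062 (limma adjusted p = 0.000132). Dnlz and Pmpca are close neighbours on chromosome 2, with their lower ends 41.2 kb apart in GRCm38.p6. Immp1l, a subunit of the inner membrane peptidase, rose by 0.41 ± 0.058 (adjusted p = 0.000995), or by 0.23 (adjusted p = 0.0242) with brighter neighbours subtracted.

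Mtch2, an insertase of the outer membrane, rose by 0.23 ± 0.055 (limma adjusted p = 0.0148), and Mtx1, of the sorting and assembly machinery, by 0.33 ± 0.082 (adjusted p = 0.0208). Dnajc15, a J protein related to Dnajc19, rose too. With brighter neighbours subtracted Mtch2 was left at 0.10 (adjusted p = 0.253) and Mtx1 at 0.19 (adjusted p = 0.145). With all neighbours subtracted, as planned, Mtch2 was left at 0.13 (adjusted p = 0.149) and Mtx1 at 0.22 (adjusted p = 0.105). Mtx1 also missed without wild-type replicate 1 or VWA8-null replicate 1. Dnajc15 missed without any 1 of wild-type replicates 1, 2 and 3 or VWA8-null replicates 1, 2 and 3. The other 14 measured genes did not pass. The ratio of Grpel1 to its paralog Grpel2 moved from 0.41 ± 0.089 (SD) to 0.14 ± 0.053 (exact permutation p = 0.0286, adjusted p = 0.0952), and the difference of -0.27 became -0.12 with brighter neighbours subtracted.

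Among 13 other chaperones and proteases of the mitochondrion 3 were higher and 1 was lower, beside 10.4% each way over all genes. Clpx, the unfoldase of the ClpXP protease, read 8.23, 8.39, 8.26 and 8.39 against 8.78, 8.76, 8.78 and 8.87, a rise of 0.48 ± 0.062 (limma adjusted p = 0.000672). Its peptidase partner Clpp, chosen after its values were seen, was at 0.08 ± 0.068 (adjusted p = 0.496). Lonp1, the main soluble protease of the matrix, read 8.57, 8.44, 8.52 and 8.52 against 8.16, 8.29, 8.17 and 8.16, at -0.32 ± 0.058 (adjusted p = 0.00439).

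The membrane-bound proteases Afg3l2 and Yme1l1 rose by 0.35 ± 0.071 (limma adjusted p = 0.00737) and 0.28 ± 0.062 (adjusted p = 0.0114), the latter left at 0.18 (adjusted p = 0.0754) with brighter neighbours subtracted. The other 9 genes of this list did not pass. Of 9 cytosolic chaperones and clearance factors 1 passed, against 20.9% of all genes, namely Hsp90aa1 at -0.22 ± 0.062 (adjusted p = 0.0375), and it missed when any 1 array other than VWA8-null replicate 1 was left out.

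Of 14 factors that control mitochondrial stress and biogenesis genes 2 were higher and 3 lower, beside 10.4% each way over all genes. Atf5, a bZIP factor linked to the mitochondrial unfolded protein response, read 8.68, 8.72, 8.61 and 8.69 in wild-type and 9.24, 9.19, 8.95 and 9.07 in VWA8-null cells, a rise of 0.44 ± 0.074 (limma adjusted p = 0.00298). Ddit3, which encodes CHOP, read 7.20, 7.10, 7.33 and 7.17 against 6.87, 6.90, 6.71 and 6.87, at -0.36 ± 0.071 (adjusted p = 0.00671). Cebpb, the partner of CHOP at its targets, was at -0.43 ± 0.076 (adjusted p = 0.00364).

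Ppargc1b, a coactivator of mitochondrial biogenesis, rose by 0.35 ± 0.073 (limma adjusted p = 0.00881). Nrf1, the nuclear respiratory factor, was lower, and its call was lost when wild-type replicate 1 or 4 or VWA8-null replicate 1, 2 or 4 was left out and when neighbours were subtracted. Atf4, the main factor of the integrated stress response, was chosen after its values were seen. It was at 0.20 ± 0.070 (adjusted p = 0.0744), with no overlap between genotypes.

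**Figure D5:**
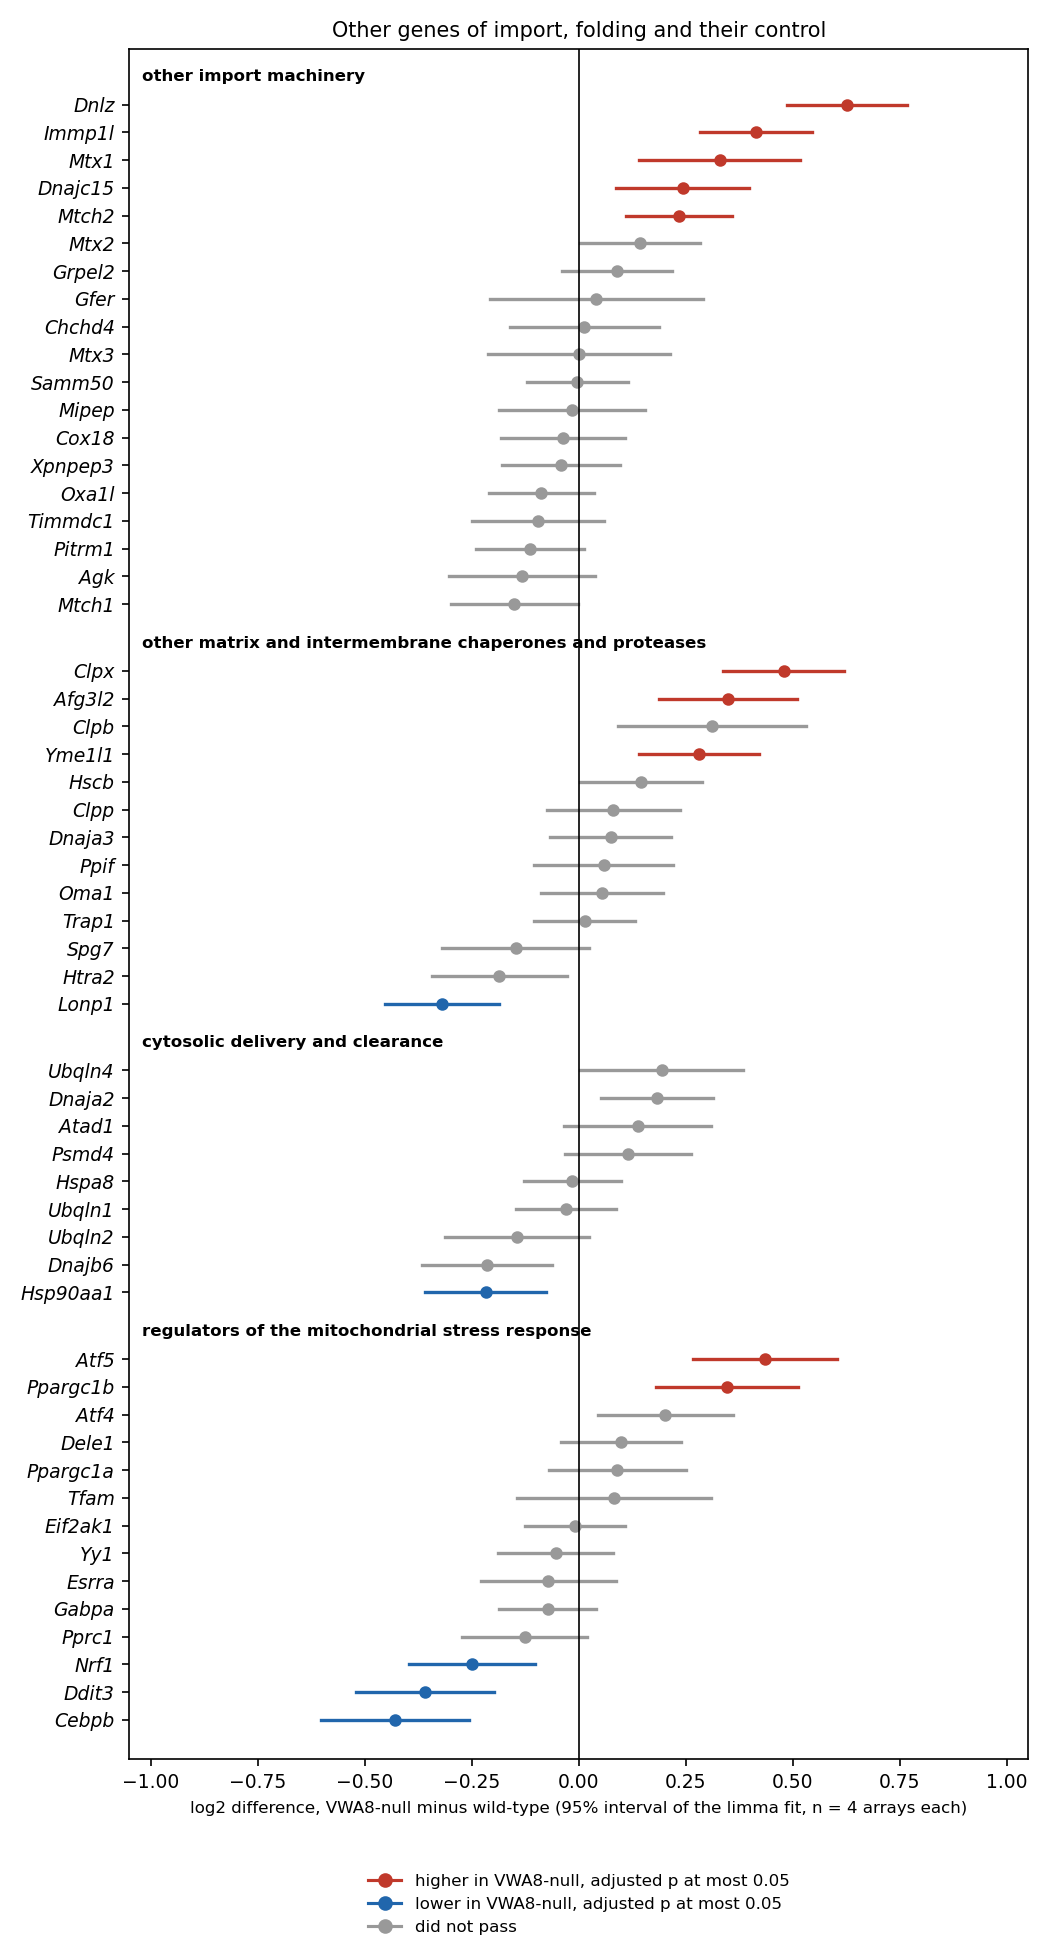
Log2 difference (VWA8-null minus wild-type, horizontal axis) with the 95% interval of the limma fit for the measured genes of 4 further lists, 4 arrays per genotype; red genes were higher, blue genes lower, and grey genes did not pass. Dnlz at 0.63 is the highest point and Cebpb at -0.43 the lowest.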

How the data were processed

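The authors deposited log2 expression values of 41345 probe sets on 8 arrays. That they are log2 was read from the values, which run from 0.44 to 13.55. RNA was DNase-treated and biotin-labelled, per the labels' protocols. Background correction, normalization and summarisation: not given in the sources used here. No normalization was added. Dim signals cannot be told from background. Genes were named from the platform annotation: 23521 probe sets had 1 symbol, 1814 several and 16010 none listed.

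Genotypes were compared in limma 3.58.1 (R 4.3.3) over the 22180 genes, two-sided, with genotype alone in the model, and errors of differences are the SE of that fit. Ratios of partner genes within an array were compared by exact permutation over 70 arrangements; both planned ratios to Dnajc19 were left out, as it was not measured. The 4 arrays per group limit the precision, and p-values measure the spread between these cultures. Gene order came from RefSeq's GRCm38.p6, matched by Entrez identifier for 21994 genes. The fit was tested on simulated data. Figures were drawn with matplotlib 3.10.9 (Python 3.11.15).

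The members and lists were chosen with earlier results of these data known. Every member of the set is given; of each further list every gene past the threshold is named, with values for up to 4. Of 21, 13, 12 and 15 listed genes of the 4 further lists, 19, 13, 9 and 14 were measured. Alternatives were quantile normalization, median centring, an intensity trend, array weights, filters on dim probe sets, averaging over the probe sets of a gene, all probe sets in 1 fit, the replicate block, subtraction of chromosomal neighbours, and leaving out each array.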

Additional observations from a re-analysis of the deposited data

Results flagged for a closer look

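Among 62 groups of 4 arrays (the 30 genes and Vwa8, each genotype), 3 held an array whose gap to its nearest neighbour was most of the group's range, where chance flags about 1 group in 20. For Timm8a2, VWA8-null replicate 3 read 4.16 and the next array 4.69. For Timm9, wild-type replicate 4 read 6.23 and the next 6.02. For Tomm20, VWA8-null replicate 4 read 7.66 and the next 7.92. The 3 arrays differ, and none of these 3 genes passed the test.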

How the results depend on the processing

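Most genes were refitted under 19 alternatives (Tomm20l under 18, as the stricter dim filter removed it). Genes called over the whole array ranged from 1785 to 2773 higher and from 1732 to 2800 lower. Of the set, 5 higher became 3 with brighter and 4 with all neighbours subtracted. The higher genes were 6 with an intensity trend, and 6 and 7 without the dimmest 25% and 50% of probe sets. They stayed between 5 and 6 with 1 array left out. The 3 lower became 5 with quantile normalization, 7 and 8 without the dimmest 25% and 50% of probe sets and 8 with an intensity trend. Lower calls over all genes rose as well under each of these, and the dim filters left fewer genes to test. The lower genes of the set became 1 when the probe sets of a gene were averaged, with all probe sets in 1 fit or with all neighbours subtracted. With 1 array left out they ranged from 1 to 3. The median over the set, 0.0083, was 0.029 with median centring and 0.027 with neighbours subtracted, and ran from -0.011 to 0.032 with 1 array left out.

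Signs turned only for genes and ratios that did not pass. Timm17a stood at -0.014 with quantile normalization and -0.016 with array weights. Subtracting brighter neighbours left Timm10 at -0.079, Timm44 at 0.020, Tomm70a at 0.0074 and the ratio Timm8a1 to Timm8b at 0.071 (0.026 with all neighbours). Averaging its probe sets left Timm8a1 at -0.021. With 1 array left out, Timm17a ran from -0.045 to 0.043, Timm10 from -0.059 to 0.16, Tomm20l from -0.071 to 0.050, Timm8a1 from -0.016 to 0.095, Pam16 from -0.025 to 0.042, Tomm70a from -0.072 to 0.0096 and the ratio Hspd1 to Hspe1 from -0.020 to 0.061.

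Deviations of same-numbered replicates were at most weakly correlated (from -0.0015 to 0.059), and 2 of 4 correlated best with their own number. These values do not settle whether the numbers pair the samples, which the labels do not say. With the replicate block, Tomm22 missed the threshold at -0.17 (limma adjusted p = 0.131), as did Mtch2, Dnajc15, Hsp90aa1 and Nrf1, and the other 7 calls in the set held. The ratios could not pass with the block, as 4 pairs are too few, and array weights, the intensity trend and the fit of all probe sets have no counterpart for them. The number of arrays and dim probe sets such as that of Hspe1 limit what can be shown.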
